A study of Mus musculus with 6 samples.

Results

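The ribosomal protein genes of the cytosolic ribosome were compared between Ctrl and cKO testes. The genes were those of the deposited table that code for protein and carry the mouse symbol of a ribosomal protein (*Rpl* or *Rps* with a number, *Rplp0*, *Rplp1*, *Rplp2* and *Rpsa*), with *Rps4l* added by name because the table lists it as a transcribed processed pseudogene. This gave 84 of the 54532 genes of the table. Of these, 77 were core genes, 46 for the large (60S) subunit with its stalk and 31 for the small (40S) subunit. The other 7 were paralogs of core genes (*Rps4l*, *Rpl10l*, *Rpl39l*, *Rpl3l*, *Rpl22l1*, *Rpl7l1* and *Rps27l*) and were kept apart. A test was possible for 83 of the 84, and *Rpl3l* had too few reads.

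The data were RNA-seq of polyadenylated RNA from whole mouse testes at 5 days postpartum (dpp), with 3 Ctrl and 3 cKO samples. In the cKO mice (*Vasa*-Cre *Srsf1* Fl/del) 1 allele of *Srsf1*, which codes for a splicing factor, is deleted, and exons 2 to 4 of the floxed allele are removed by a Cre under the promoter of *Vasa* (*Ddx4*), which is active in germ cells. The genotype of the Ctrl mice beyond "Ctrl", the strain background of the sequenced animals and whether testes were pooled are not given in the sources used here. Cre acts in germ cells, whereas each value sums germ cells, Sertoli cells, Leydig cells and all other cells of the testis, so fewer cells of a type and less RNA per cell cannot be told apart.

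A ribosome holds a single copy of most of its proteins, so their mRNAs are made in similar amounts and are among the most abundant of any cell. Several core genes lie on the X chromosome, which is silenced in male germ cells at meiosis, and *Rpl10l* is known as an autosomal copy that replaces *Rpl10* at that stage. Ribosomal protein mRNAs start with a run of pyrimidines, the TOP tract, through which their translation is regulated together. Most of these genes also have many processed pseudogenes, intronless copies of the mRNA elsewhere in the genome.

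The libraries held between 15448191 and 18964743 reads, recovered from the deposited FPKM (fragments of a gene scaled to its length and to library size). The level of *Srsf1* ranged from 82.1 to 89.1 FPKM in Ctrl and from 45.1 to 51.6 FPKM in cKO libraries. Summed over 20 germ cell markers, Ctrl libraries 1 to 3 held 184, 467 and 204 FPKM, in order, and cKO libraries 1 to 3 held 50.4, 92.6 and 64.7 FPKM, so that Ctrl 2 stood above the other Ctrl libraries. All 10 markers of the retina, an organ named in the labels' extraction text, were under the filter, and their sums were 0.406 to 0.984 FPKM. In Ctrl 1, *Rps2* and *Rps18* stood far below all other libraries.

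*Rps4l*, *Rpl10l* and *Rpl39l* were lower in every cKO library than in every Ctrl library, with cKO means at 0.270 to 0.387 times the Ctrl means, while *Rps4x*, *Rpl10* and *Rpl39*, the X-linked genes they resemble, had cKO means 19.7% to 25.8% above theirs. *Rps4l* (ENSMUSG00000063171, chromosome 6, 148354656 to 148355598, + strand, GRCm38) is a single exon of 943 bases. In Ctrl libraries 1 to 3 its level was 125, 189 and 150.4 FPKM, in order, and in cKO libraries 1 to 3 it was 63.2, 53.8 and 62.7 FPKM. The cKO libraries were close to each other and all lay under the lowest Ctrl library. The means were 155 ± 32.5 and 59.9 ± 5.24 FPKM (SD, n = 3 per group). On the log2(FPKM + 1) scale, the cKO mean differed from the Ctrl mean by −1.34 (SE 0.158), with an adjusted p of 0.0615 in limma, above the threshold of 0.05.

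None of the 83 genes tested passed that threshold in limma on log2(FPKM + 1), as for all 16206 genes tested (0% called). The deleted gene *Srsf1* did not pass it either (log2 fold change −0.849, SE 0.0870, adjusted p 0.0578 in limma). The paper, with DESeq2 on read counts, reported genes called in both directions. A gene that misses the threshold in this fit is therefore not shown to be unchanged. At an unadjusted p under 0.05, 5 of the 83 were higher and 3 were lower in cKO testes, beside 6.6% and 9.31% of all genes tested. Limma voom on the recovered reads called 1 of the 83 lower (0.376% of all genes) and 1 higher (0.136%). These were *Rps4l* (log2 fold change −1.35, adjusted p 0.0255 in voom) and *Rpl13a*, described below. Limma on protein-coding genes and *Rps4l* alone called 3 lower (1.36% of the genes in that fit) and 1 higher (0.28%), and added *Rpl10l* and *Rpl39l* to them.

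*Rpl10l* (chromosome 12, 66283379 to 66284401, − strand) is likewise a single exon, and codes for the autosomal copy of a large-subunit protein that lies next to the catalytic centre. In Ctrl libraries 1 to 3 its level was 24.4, 51.6 and 23.5 FPKM, in order, and in cKO libraries 1 to 3 it was 6.34, 12.5 and 8.10 FPKM. *Rpl39l* (chromosome 16, 10170226 to 10174911, + strand) has 3 exons and codes for a copy of a small protein of the exit tunnel. In Ctrl libraries 1 to 3 its level was 21.2, 46.8 and 20.3 FPKM, in order, and in cKO libraries 1 to 3 it was 5.58, 10.4 and 8.10 FPKM. In both genes Ctrl 2 was more than 2-fold above the other Ctrl libraries, cKO 2 was the highest cKO library, and the groups did not overlap. Log2 fold changes were −1.73 (SE 0.336, adjusted p 0.105 in limma) for *Rpl10l* and −1.68 (SE 0.338, adjusted p 0.108) for *Rpl39l*. With protein-coding genes and *Rps4l* alone the adjusted p were 0.0371 and 0.0397. Counting error at these levels was small beside that spread, with 102 to 1006 reads per library for *Rpl10l* and 73 to 741 for *Rpl39l*.

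The X-linked genes of the pairs did not share these lower levels. For *Rps4x*, Ctrl libraries 1 to 3 held 718, 825 and 725 FPKM, in order, and cKO libraries held 895, 938 and 1020.1 FPKM, with no overlap. For *Rpl10*, Ctrl libraries 1 to 3 held 463, 468 and 496 FPKM, in order, and cKO libraries held 612, 582 and 599 FPKM, also with no overlap. For *Rpl39*, Ctrl libraries 1 to 3 held 303, 374 and 341 FPKM, in order, and cKO libraries held 370.3, 427 and 422 FPKM, where the lowest cKO library lay just under the highest Ctrl library. Log2 fold changes of 0.33, 0.33 and 0.26 missed the threshold (limma, adjusted p 0.262, 0.199 and 0.343). As a share of both transcripts of a pair, each per base of its main mRNA, *Rps4l* made up 10.8% ± 1.34 in Ctrl and 3.64% ± 0.374 in cKO testes. The share of *Rpl10l* was 2.65% ± 1.28 and 0.584% ± 0.219, and that of *Rpl39l* was 5.16% ± 2.02 and 1.24% ± 0.291 (SD, n = 3 per group). The X-linked gene was therefore the main transcript of each pair in every library.

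**Figure D1:**
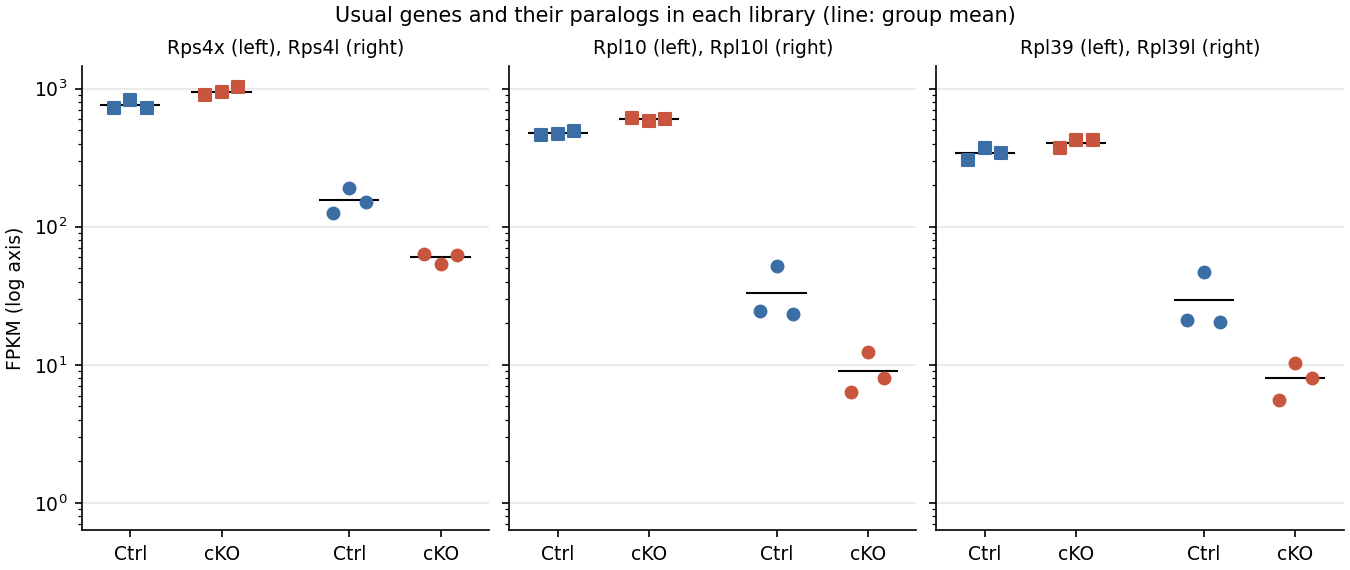
FPKM (log axis) of *Rps4x* and *Rps4l*, *Rpl10* and *Rpl10l*, and *Rpl39* and *Rpl39l* in each Ctrl (blue) and cKO (red) library, with squares for the X-linked gene, circles for the autosomal paralog and lines for group means. Every cKO circle lies under every Ctrl circle of its paralog, whereas the cKO mean of each X-linked gene lies above its Ctrl mean, with overlap for *Rpl39*.

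The first bases of the pairs are printed to show how far reads of 150 bases can tell a paralog from its X-linked gene. Sequences are from GENCODE release M21 on GRCm38, run 5′ to 3′ from the first codon (for *Rps4l*, base 55 of its transcript, which aligns with the first codon of *Rps4x*), and capitals mark bases at which the 2 genes of a pair differ.
Rps4x: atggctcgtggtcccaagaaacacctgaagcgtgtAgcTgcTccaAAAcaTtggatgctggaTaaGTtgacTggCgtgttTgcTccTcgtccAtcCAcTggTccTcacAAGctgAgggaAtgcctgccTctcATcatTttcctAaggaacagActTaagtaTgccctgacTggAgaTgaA
Rps4l: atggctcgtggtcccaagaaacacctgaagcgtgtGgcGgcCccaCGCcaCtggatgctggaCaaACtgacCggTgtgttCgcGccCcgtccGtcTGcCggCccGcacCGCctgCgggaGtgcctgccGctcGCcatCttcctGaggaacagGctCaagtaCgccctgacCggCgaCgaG
Rpl10: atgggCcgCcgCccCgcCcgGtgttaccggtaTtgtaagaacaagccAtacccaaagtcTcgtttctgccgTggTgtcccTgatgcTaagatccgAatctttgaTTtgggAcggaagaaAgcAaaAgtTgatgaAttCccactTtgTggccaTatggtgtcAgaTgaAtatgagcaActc
Rpl10l: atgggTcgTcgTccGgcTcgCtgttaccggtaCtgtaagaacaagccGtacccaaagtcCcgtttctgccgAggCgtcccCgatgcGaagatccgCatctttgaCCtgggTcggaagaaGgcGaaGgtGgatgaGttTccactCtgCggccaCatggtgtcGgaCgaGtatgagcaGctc
Rpl39: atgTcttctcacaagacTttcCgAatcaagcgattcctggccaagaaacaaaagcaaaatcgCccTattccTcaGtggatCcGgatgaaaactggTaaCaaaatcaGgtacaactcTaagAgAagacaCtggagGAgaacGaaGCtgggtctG
Rpl39l: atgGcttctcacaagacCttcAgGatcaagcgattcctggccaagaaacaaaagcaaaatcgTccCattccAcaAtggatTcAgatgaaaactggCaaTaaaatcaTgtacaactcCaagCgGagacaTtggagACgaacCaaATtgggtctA
Over the coding sequence, *Rps4l* and *Rps4x* had 79.9% identical bases (157 of 783 different), *Rpl10l* and *Rpl10* 84.7% (98 of 642) and *Rpl39l* and *Rpl39* 85.0% (23 of 153). The longest identical runs were 35, 23 and 38 bases, shorter than 1 read. No 150-base stretch of the 3 paralogs occurred in another annotated transcript, and 50-base stretches did so for 14.9% of *Rps4l*, 7.60% of *Rpl10l* and 0% of *Rpl39l*.

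The levels of the 3 paralogs were then set beside the germ cell markers of the same libraries. Of the 18 markers tested, 16 were lower in every cKO library (12.8% of all genes tested were), with a median log2 fold change of −1.40, and 2 more (*Nanos2* and *Dppa3*) were under the filter. The paper had already reported several of the listed markers, such as *Gfra1*, *Pou5f1* and *Stra8*, as reduced in these RNA-seq data. The count is therefore not an independent result. Per FPKM of the summed markers, *Rpl10l* had ratios of 0.132, 0.111 and 0.115 in Ctrl libraries and of 0.126, 0.135 and 0.125 in cKO libraries. *Rpl39l* had ratios of 0.115, 0.1003 and 0.0997 in Ctrl libraries and of 0.111, 0.112 and 0.125 in cKO libraries. For both genes the groups overlapped in this ratio, and Ctrl 2 no longer stood apart. *Rps4l* had ratios of 0.677, 0.405 and 0.738 in Ctrl libraries and of 1.25, 0.582 and 0.969 in cKO libraries, with overlap and with the lowest values in Ctrl 2 and cKO 2.

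The result depended on the scale. Per FPKM of *Ddx4* alone the groups again overlapped for all 3 paralogs. As the difference from the mean log2(FPKM + 1) of the 18 markers, *Rpl10l* was at 1.70 ± 0.050 in Ctrl and 1.32 ± 0.175 in cKO testes and *Rpl39l* at 1.52 ± 0.082 and 1.19 ± 0.143 (SD, n = 3 per group), both without overlap, while *Rps4l* overlapped at 3.96 ± 0.339 and 3.97 ± 0.392. The 1 added to each FPKM shrinks differences at low levels, and the 20 markers summed to only 50.4 to 92.6 FPKM in cKO libraries. The part of the added 1 in this separation was not tested. With 3 against 3 libraries, an exact two-sided permutation test of such a ratio or difference cannot go below 0.1. The part of germ cell number in the levels of the paralogs was not tested.

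**Figure D2:**
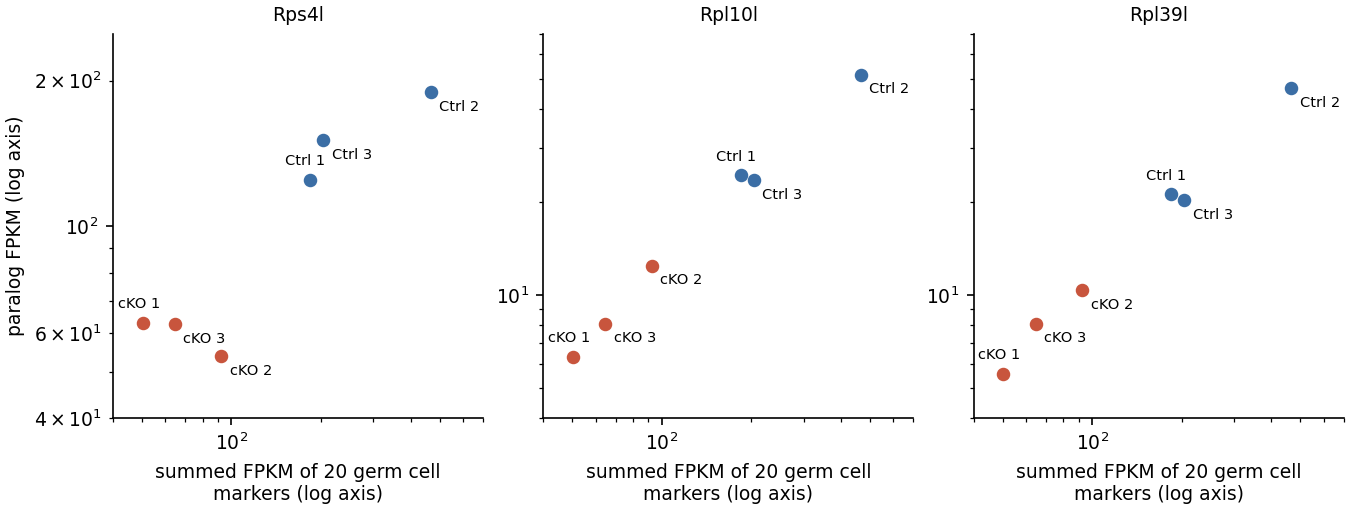
FPKM of *Rps4l*, *Rpl10l* and *Rpl39l* (y, log axis) against the summed FPKM of the 20 germ cell markers (x, log axis), with 1 point per Ctrl (blue) and cKO (red) library. *Rpl10l* and *Rpl39l* follow the order of the markers in all 6 libraries but Ctrl 1 and Ctrl 3, whereas *Rps4l* was lowest in cKO 2, the cKO library with the most marker RNA.

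The other 4 paralogs differed less between groups, or had too few reads. *Rpl22l1*, the paralog of *Rpl22*, had means of 38.0 ± 5.28 FPKM (Ctrl) and 41.1 ± 2.79 FPKM (cKO), and *Rps27l*, a stress-responsive paralog of *Rps27*, was at 141 ± 23.0 and 136 ± 14.3 FPKM (SD, n = 3 per group). Their log2 fold changes of 0.12 (95% interval −0.15 to 0.38, adjusted p 0.652 in limma) and −0.04 (−0.36 to 0.29, adjusted p 0.915) were within the spread between libraries. For *Rpl7l1*, the paralog of *Rpl7*, Ctrl libraries 1 to 3 held 38.6, 44.2 and 35.8 FPKM, in order, and cKO libraries held 35.4, 33.7 and 35.7 FPKM. The groups were just apart, with a log2 fold change of −0.17 (95% interval −0.39 to 0.06, adjusted p 0.440 in limma). *Rpl3l*, known as the form of *Rpl3* in striated muscle, was at 0.703 FPKM or less in all libraries, from 1 to 22 reads. *Rpl22* and *Rpl7* were at log2 fold changes of 0.14 and 0.16 (adjusted p 0.535 and 0.603).

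The share of *Rpl22l1* in its pair was 13.2% ± 0.767 in Ctrl and 13.0% ± 0.374 in cKO testes, and that of *Rpl7l1* was 8.02% ± 0.522 and 6.48% ± 0.409 (SD, n = 3 per group). *Rpl36al*, an intronless paralog of *Rpl36a* outside the name rule, was at 0.531 to 1.02 FPKM in the 6 libraries. *Rps3a2*, listed as a processed pseudogene of *Rps3a1*, was at 5.38 to 10.9 FPKM, and *Rpl26l1* was not analysed here.

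The core genes as a group lay slightly higher in cKO testes. Of the 77, 67 had a log2 fold change above 0, and the median was 0.10 beside 0.003 over all 16206 genes tested. In 11 of the 77 every cKO library was above every Ctrl library and in 0 every cKO library was below, beside 10.3% and 12.8% of all genes tested. The interquartile range of the core genes was 0.05 to 0.17. The large subunit (43 genes without the stalk) had a median of 0.13, the small subunit (31 genes) 0.08 and the 3 stalk genes *Rplp0*, *Rplp1* and *Rplp2*, which recruit translation factors, 0.05. Other abundant protein-coding genes, the 332 with a mean of at least 100 FPKM, had a median of 0.04.

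The size of this shift was close to the differences between libraries of a group. Against the mean of the Ctrl libraries, the median core gene was at −0.11, 0.12 and −0.01 on the log2 scale in Ctrl libraries 1 to 3, in order, and at 0.06, 0.06 and 0.20 in cKO libraries 1 to 3. Ctrl 2 therefore lay above cKO 1 and cKO 2. The median log2 fold change was 0.06 without Ctrl 1, with 54 of the 77 above 0, 0.16 without Ctrl 2, with 72 above 0, and 0.06 without cKO 3, with 60 above 0, and after quantile normalization it was 0.05, with 53 above 0. The small subunit had a median of 0.02 and the stalk of −0.02 without Ctrl 1, and these were 0.02 and −0.005 without cKO 3, while the large subunit stayed at 0.09 and 0.08. The number of core genes higher in every cKO library was 36 without Ctrl 2 (46.8%, beside 13.5% of all genes tested). It was 13 (16.9%) without Ctrl 1 and without cKO 3, near the 16.1% and 17.1% of all genes tested. Without Ctrl 3, cKO 1 or cKO 2 it was 15 to 18 (19.5% to 23.4%, beside 14.7% to 16.9%). Summed over the core genes, 5.31%, 6.50% and 5.79% of the reads of Ctrl libraries 1 to 3, in order, fell on them, and 6.24%, 6.25% and 6.53% of those of cKO libraries 1 to 3. On the same log2 scale, the 332 other abundant genes had medians of −0.02, −0.03 and 0.04 in Ctrl libraries 1 to 3, in order. Their medians in cKO libraries 1 to 3, in order, were 0.01, −0.07 and 0.14, so cKO 3 was highest in both sets.

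**Figure D3:**
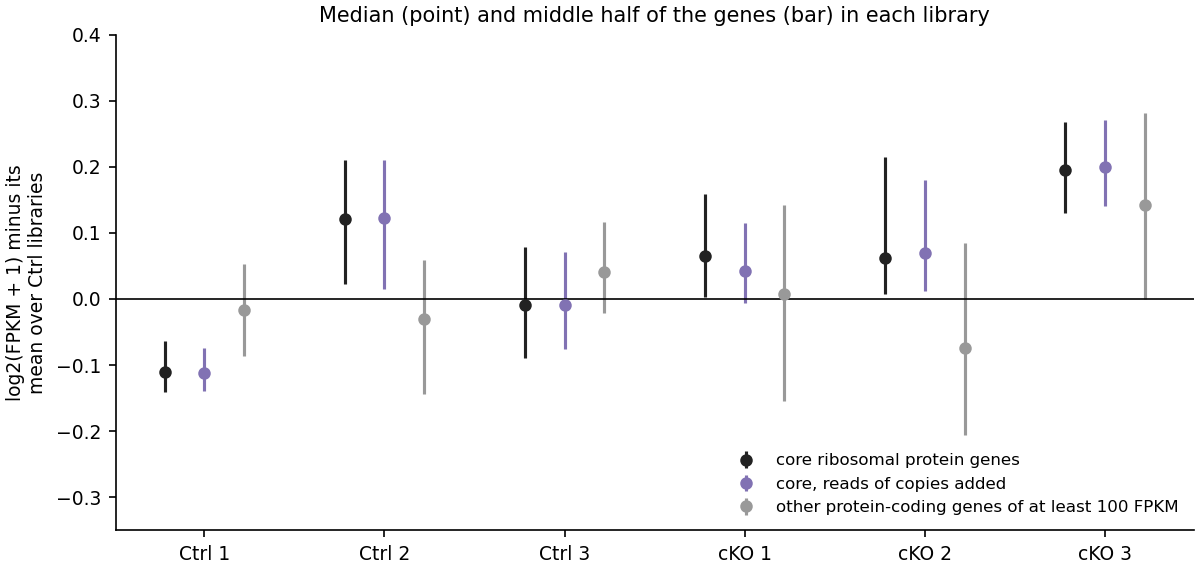
Median (point) and interquartile range (bar) of log2(FPKM + 1) minus its mean over the Ctrl libraries, for the 77 core genes, the same with reads of near-identical copies added, and 332 other abundant protein-coding genes, in each library. Core genes lie lowest in Ctrl 1 and highest in cKO 3, and Ctrl 2 lies above cKO 1 and cKO 2.

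The 8 core genes with the highest mean FPKM showed the same small differences. *Rplp1* was highest, with means of 2491 ± 252 FPKM (Ctrl) and 2672 ± 241 FPKM (cKO), followed by *Rps3a1* (1583 ± 230 and 1673 ± 170.1 FPKM), *Rplp0* and *Rps15* (SD, n = 3 per group). *Rpl41*, which codes for the smallest ribosomal protein, *Rpl4*, *Rpl36* and *Rps4x* completed the 8. Apart from *Rps4x*, their log2 fold changes lay between 0.03 for *Rpl4* and 0.13 for *Rpl41*, with adjusted p of 0.699 or more in limma. FPKM here divides by all exonic bases of a gene, and per base of the main mRNA *Rpl41* was highest (3019 FPKM) before *Rplp1* (2582 FPKM). On that scale *Rps14* was at 1966 FPKM, *Rpl13* at 1859 FPKM and the median core gene at 1048 FPKM. These values depend on the annotated transcript taken as the main mRNA, and a long one lowers them. Examples are *Rps20* (3706 bases, 236 FPKM) and *Rps3* (1908 bases, 622 FPKM).

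All 4 X-linked core genes had log2 fold changes above 0, from 0.24 for *Rpl36a* to 0.33 for *Rps4x*, with a median of 0.29. For *Rpl36a*, Ctrl libraries 1 to 3 held 199, 235.4 and 216 FPKM, in order, and cKO libraries held 238, 250.03 and 282 FPKM, so that 3 of the 4 genes did not overlap between groups and *Rpl39* did. The 534 other X-linked protein-coding genes tested had a median of −0.03, with 8.99% of them higher and 26.0% lower in every cKO library. The 73 autosomal core genes had a median of 0.09. None of the 4 passed the threshold in limma (adjusted p 0.199 to 0.343) or in voom.

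*Rpl13a*, a large-subunit gene whose introns carry small nucleolar RNAs, had the smallest adjusted p of the core genes in limma. In Ctrl libraries 1 to 3 its level was 18.2, 19.1 and 17.3 FPKM, in order, and in cKO libraries 1 to 3 it was 27.4, 28.0 and 25.8 FPKM, about the same within each group and 48.9% higher in the cKO mean. Its log2 fold change of 0.55 (SE 0.079) had an adjusted p of 0.0760 in limma, 0.0450 in voom and 0.0264 among protein-coding genes and *Rps4l*. It stayed between 0.51 and 0.58 without any 1 library. The level was low for a core gene, from 605 to 987 reads. Of the bases of its main mRNA, 59.3% also lie in an annotated exon of *Gm45713* or *Mir5121*, both listed at 0 FPKM in all libraries. How reads in overlapping exons were counted is not given in the sources used here.

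The same held for *Rps10* and *Rpl24*. Of their mRNA bases, 91.6% lie in exons of *RPS10-NUDT3* and 71.5% in exons of *Gm28037*, again genes listed at 0, and *Rps10* and *Rpl24* were at only 1.83 to 3.47 FPKM and 2.70 to 4.52 FPKM. *Rps10-ps2*, a pseudogene with 99.0% of its 495 coding bases identical to *Rps10*, was at 522 to 625 FPKM. In all, 8 of the 84 genes had over 25% of their mRNA bases in an exon of another gene. Among these, *Rpl35* (68.3%), *Rpl23a* (55.4%) and *Rpl5* (46.6%) had means of 336, 711 and 304 FPKM over all libraries. The genes they overlap, such as *Arpc5l*, *Tlcd1* and *Fam69a*, were above 0 in every library. The part of overlap in any of these levels was not tested. *Rps10*, *Rpl24*, *Rpl35*, *Rpl23a* and *Rpl5* were named after their values were seen.

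The core genes with the most positive values were *Rps2*, *Rps18*, *Rpl26*, *Rpl13a*, *Rpl29* and *Rpl34*, and all but *Rpl13a* had a library far from the others of its group. *Rps2*, for a small-subunit protein at the mRNA entry, was at 2.23 FPKM in Ctrl 1 and at 491 to 614 FPKM in the other 5 libraries. Its X-linked pseudogene *Rps2-ps13* was at 728 FPKM in Ctrl 1 and at 52.7 to 68.8 FPKM in the others. The log2 fold change of *Rps2* was 2.39 (SE 1.87, adjusted p 0.562 in limma), −0.11 without Ctrl 1 and 0.16 with the reads of copies added. *Rps18* was at 16.8 FPKM in Ctrl 1 and at 402 to 461 FPKM elsewhere, while its copy *Gm11361* was at 326 FPKM in Ctrl 1 and at 24.3 to 42.8 FPKM elsewhere. Its log2 fold change of 1.57 (SE 1.14, adjusted p 0.535 in limma) was 0.04 without Ctrl 1 and 0.71 with the reads of copies added.

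The printed stretches of *Rps2* and *Rps2-ps13*, the first 180 coding bases, show how alike such a copy is. Capitals mark the bases that differ, and over the whole coding sequence 7 of 879 bases differed, with 302 identical bases in a row.
Rps2: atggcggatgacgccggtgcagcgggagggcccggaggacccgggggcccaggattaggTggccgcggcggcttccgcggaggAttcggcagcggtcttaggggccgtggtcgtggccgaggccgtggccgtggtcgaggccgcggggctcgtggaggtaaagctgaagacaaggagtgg
Rps2-ps13: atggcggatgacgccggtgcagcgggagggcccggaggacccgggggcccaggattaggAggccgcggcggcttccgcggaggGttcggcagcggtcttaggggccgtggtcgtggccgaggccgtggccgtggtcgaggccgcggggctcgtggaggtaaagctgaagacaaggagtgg

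*Rpl26* was at 247 and 243 FPKM in Ctrl 1 and Ctrl 3 and at 517 to 637 FPKM in the other 4 libraries, and its copy *Gm15772* was at 904 and 895 FPKM in Ctrl 1 and Ctrl 3 and at 88.9 to 109 FPKM in the others. The log2 fold change was 0.70 (SE 0.355, adjusted p 0.391 in limma), passed the threshold without Ctrl 2 (1.16, adjusted p 0.0425) and was 0.48 without Ctrl 1 and 0.04 with the reads of copies added. *Rpl34* was at 95.0, 130.1 and 117 FPKM in Ctrl 1, Ctrl 2 and cKO 3 and at 182 to 211 FPKM in the others, and *Rpl34-ps1* was at 739, 949 and 867 FPKM in Ctrl 1, Ctrl 2 and cKO 3 and at 36.6 to 82.9 FPKM in the others. The log2 fold change of *Rpl34* was 0.39 (adjusted p 0.555 in limma), 0.16 without Ctrl 1 and 0.66 without cKO 3. *Rpl3*, whose protein lies at the catalytic centre, and *Rpl30* were both lowest in Ctrl 1 and cKO 3, the libraries in which *Rpl3-ps1* (380 and 442 FPKM against 71.96 to 90.7) and *Gm12191* (376 and 497 FPKM against 26.3 to 84.3) were highest. The log2 fold change of *Rpl3* was 0.18 (adjusted p 0.753 in limma) and −0.06 without Ctrl 1. *Rpl29* was lowest in Ctrl 2, at 205 FPKM against 342 to 403 FPKM, where its copy *Gm13841* was highest (133 FPKM against 66.1 to 87.5). Another copy, *Gm10709*, was instead lowest in Ctrl 2 (8.53 FPKM against 19.1 to 30.6). The log2 fold change of *Rpl29* was 0.39, and 0.31 with the reads of copies added.

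**Figure D4:**
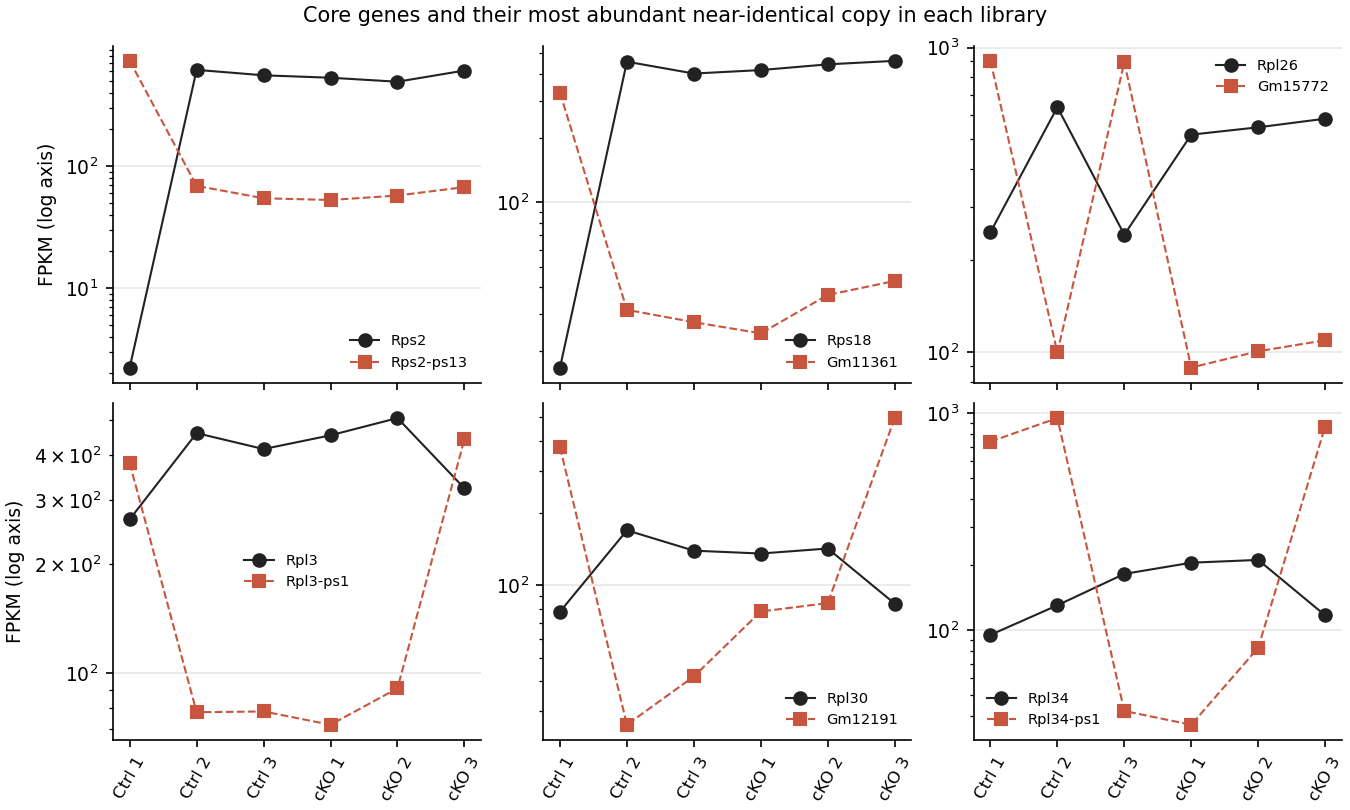
FPKM (log axis) of 6 core genes (black circles) and of the most abundant near-identical copy of each (red squares) in the 6 libraries. In each of the 6 panels the gene is lowest in the libraries in which the copy is highest, such as Ctrl 1 for *Rps2* and *Rps2-ps13*.

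Most core genes had such copies. The median core gene shared 55.4% of its 50-base stretches and 27.8% of its 150-base stretches with other annotated transcripts, and 65 of the 77 had at least 1 copy with 50% or more of its 50-base stretches in the gene. Within a group, the highest library was over 1.5-fold above the lowest for 14 of the 77 core genes, and for 4 with the reads of the 198 copies added to their genes. Over the 63 genes that stayed within 1.5-fold, 58 had a log2 fold change above 0, with a median of 0.10. With the reads of copies added, 72 of the 77 were above 0, with a median of 0.10.

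Among the most negative core genes were *Rps27a*, *Rps27*, *Rpl17*, *Rpl21* and *Rpl27*, at log2 fold changes of −0.44 to −0.08 and with overlap between groups in every case. For *Rps27a*, which codes for ubiquitin fused to a small-subunit protein, Ctrl libraries 1 to 3 held 336, 507 and 328 FPKM, in order, and cKO libraries held 152, 476 and 309 FPKM. Without cKO 1, the lowest library, the log2 fold change was 0.005. *Rps27* was lowest in cKO 2, at 230 FPKM against 333 to 590.2 FPKM, and *Rps27rt*, a gene that shares 89.8% of its stretches with it, was at 1137 FPKM in cKO 2 and at 124 to 292 FPKM elsewhere. *Rpl17* was lowest in cKO 3, at 215 FPKM, where *Rpl17-ps10* was highest at 841 FPKM. Without cKO 2 the log2 fold change of *Rps27* was 0.13, without cKO 3 that of *Rpl17* was 0.21, and without Ctrl 1 that of *Rpl21* was 0.46. With reads of copies added *Rps27*, *Rpl17* and *Rpl21* had log2 fold changes of 0.18, 0.12 and 0.04. In that fit *Rps27a* stayed negative at −0.37 and *Rpl27* at −0.08.

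**Figure D5:**
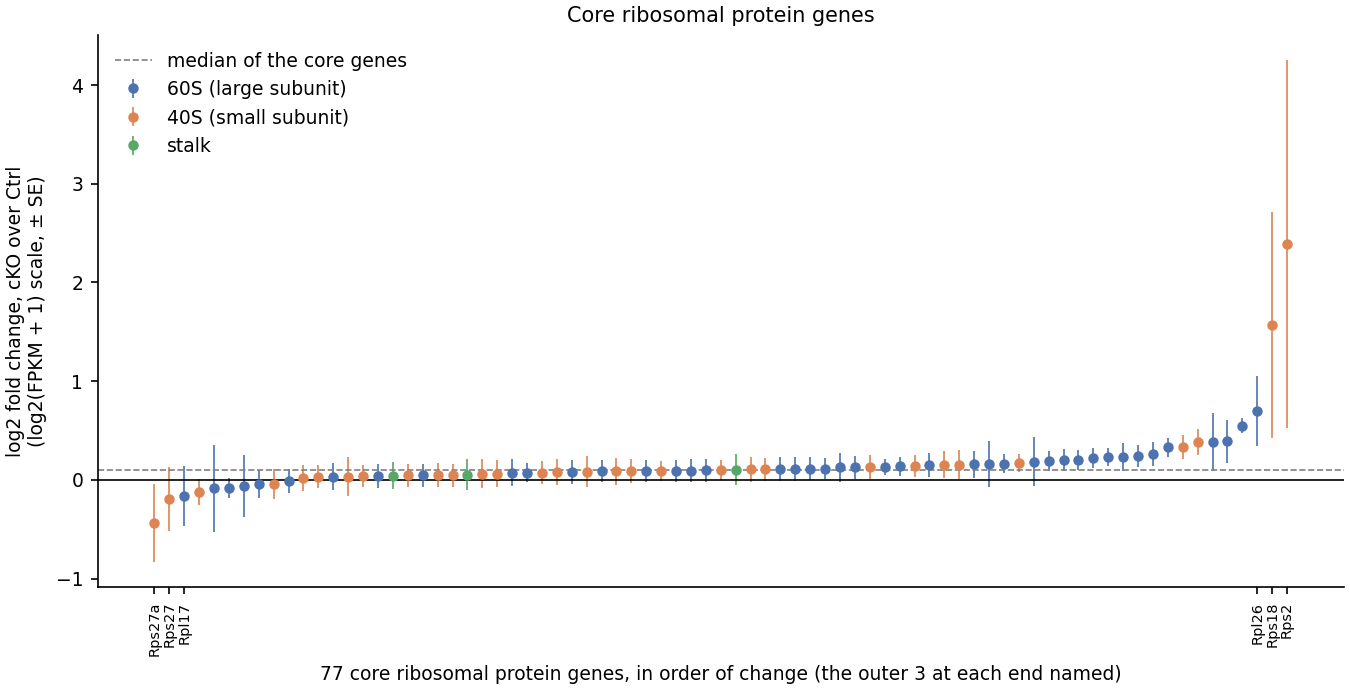
Log2 fold change of cKO over Ctrl (log2(FPKM + 1) scale, ± SE) for the 77 core genes in order, coloured by subunit, with the median as a dashed line. Most genes lie just above 0, and the wide bars of *Rps18* and *Rps2* at the upper end come from Ctrl 1.

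The start of the genes was examined for the TOP tract, read as C followed by at least 4 bases that are each C or T, on the sense strand. At the start annotated by RefSeq (GRCm38.p6), 12 of the 57 core genes with a promoter entry had it (21.1%), beside 2.49% of 27025 genes. With such a run allowed within 10 bases on either side of the start, the shares were 54.4% and 30.8%. Of 6 paralogs, 0 had it at the start itself and 5 within 10 bases. A run that ends before the start lies outside the annotated mRNA and is not a TOP tract of that start. A few windows of 30 bases are printed, in which the start is base 16 and capitals mark the run nearest to it. They show core genes with the tract at the start and 2 paralogs whose run lies wholly before the annotated start.
Rpl15: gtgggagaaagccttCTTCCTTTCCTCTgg
Rpl14: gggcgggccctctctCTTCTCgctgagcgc
Rpl10l: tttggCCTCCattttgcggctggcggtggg
Rpl39l: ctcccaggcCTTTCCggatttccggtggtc
The windows lie at chr14:18270972-18271001 (− strand), chr9:120571502-120571531 (+), chr12:66284387-66284416 (−) and chr16:10170213-10170242 (+). *Rpl15* was at 272 to 283 FPKM in Ctrl and at 303 to 309 FPKM in cKO testes, without overlap (log2 fold change 0.13, adjusted p 0.490 in limma), and *Rpl14* overlapped at −0.01 (adjusted p 0.967). Both were chosen for their tracts.

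Other genes of the translation machinery were described by list, and 0 of their members passed the threshold in limma, in voom or among protein-coding genes. Of 15 translation factors and other genes with a TOP tract, 14 had a log2 fold change above 0, with a median of 0.09, and 2, *Eef1a1* (0.18) and *Tpt1* (0.28), were higher in every cKO library (13.3%, beside 10.3% of all genes tested). Ribosome biogenesis factors lay on the other side, although *Npm1* (0.03) is in both lists. Of 49, 44 were below 0, with a median of −0.22, and 19 were lower in every cKO library (38.8%, beside 12.8% of all genes tested) and 0 higher. At an unadjusted p under 0.05 in limma, 15 of the 49 were lower, beside 9.31% of all genes tested. For *Heatr1*, a factor of small-subunit assembly, Ctrl libraries 1 to 3 held 14.5, 20.3 and 8.49 FPKM, in order, and cKO libraries held 8.30, 7.58 and 5.96 FPKM, the most negative of the list at −0.83. It was picked out after its values were seen. These factors were highest in Ctrl 2, at a sum of 1861 FPKM against 1424 to 1426 FPKM in the other Ctrl and 1297 to 1490.2 FPKM in cKO libraries. The part of the germ cell markers, also highest in Ctrl 2, was not tested.

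Of 14 genes of RNA polymerase I and its factors, which transcribe ribosomal RNA, 11 were below 0 with a median of −0.09, and 2 were lower in every cKO library (14.3%, beside 12.8% of all genes tested). Of 77 mitochondrial ribosomal protein genes tested, 57 were below 0 with a median of −0.10, and 12 were lower (15.6%) and 2 higher (2.60%) in every cKO library, beside 12.8% and 10.3% of all genes tested. Among ribosomal protein genes outside the name rule, *Fau* (679 to 838 FPKM), which codes for a fusion with a ubiquitin-like protein, *Rpl36al*, *Rps27rt* and *Rpl37rt* (49.5 to 75.9 FPKM) overlapped between groups. Among markers of other cells, the medians were 0.05 for Sertoli cells, 0.36 for Leydig cells, −0.35 for peritubular myoid cells, 0.03 for macrophages, 0.35 for endothelial cells and 0.69 for erythroid cells, and their part in the core shift was not tested.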

How the data were processed

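RNA-seq of polyadenylated RNA from 3 Ctrl and 3 cKO testes at 5 dpp was analysed, with groups and replicate numbers from the sample titles. Per the study's methods, reads were paired and 150 bases long, and were aligned with HISAT2 (version 2.0.5, also in the submitters' processing notes, which name mm10) and counted per gene with featureCounts. The authors deposited FPKM per gene, scaled to the length of all exonic bases and to library size. How reads that align to several places or lie in overlapping genes were counted is not given in the sources used here. Reads per gene were recovered, since 100% of FPKM times gene length were whole multiples of a step per library (tolerance 0.01). Read depth limits only the low values, and 3 reads on a gene of 1 kb, the floor for counting error only, would be 0.158 to 0.194 FPKM.

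Limma 3.58.1 in R 4.3.3 was fitted with a trend to log2(FPKM + 1) of the 16206 genes that reached 0.5 FPKM on average, with no covariate and Benjamini-Hochberg adjustment over all of them. P-values measure the spread between these 6 samples. Fold changes on this scale understate low genes. The fits were also run on simulated reads. There limma on log2(FPKM + 1) called 162 of 16206 genes, against 0 in these data, so the simulation does not measure its power here. Members, lists and tests were chosen with earlier results of these data known. Named with values were the paralogs and their usual genes, the 6 most negative and 6 most positive core genes, the 8 most abundant, those past the threshold in limma or voom, and those below the filter. Other genes named were picked after their values were seen. A few results that these rules would name are not reported here. Shared stretches and copies were sought in annotated GENCODE M21 transcripts only. The alternatives comprised 0.1 as pseudocount, a filter at 1 FPKM or none, scaling undone, TPM, quantile normalization, no trend, protein-coding genes with *Rps4l*, the replicate block, voom and leaving out each library. Adding the reads of copies was chosen after the data were seen.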

Additional observations from a re-analysis of the deposited data

How the results depend on the processing

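*Rps4l* kept its direction under all 17 alternatives, between −1.48 and −1.18, with adjusted p from 0.0147 to 0.225. It passed the threshold in limma voom (−1.35) and among protein-coding genes with *Rps4l* (−1.34). The number of ribosomal protein genes called lower was 0 in the test as planned, 3 among protein-coding genes, 2 with the replicate block (84 of all 16206 genes) and 1 in voom. The number called higher was 0, and 1 among protein-coding genes, in voom and without Ctrl 2 (*Rpl26*, 1 of 3 over all genes), with 0 to 1 over the libraries left out. The median of the core genes was 0.099 in the test as planned and lay between 0.05 and 0.16 under the alternatives. It fell to 0.054 after quantile normalization and to 0.061 without Ctrl 1 or without cKO 3. The SD between libraries, 0.098, was about as large as the median itself. Moves smaller than that SD therefore do not show that the shift is stable.

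With the replicate block, *Rpl10l* (adjusted p 0.0268 in limma) and *Rpl39l* (0.0391) passed, and *Rps4l* did not (0.0590). Deviations of same-numbered libraries correlated at 0.066, 0.016 and 0.088, so the pairing rests on shared numbers only, although 5 of 6 libraries correlated best with their own number.

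Of 527 values of the other 31 named genes, 502 stayed on their side, 7 newly passed and 18 changed sign, in 9 genes. Under quantile normalization *Rpl4* was at −0.076. With reads of copies added, *Rpl17* was at 0.12, *Rpl21* at 0.045 and *Rps27* at 0.18. Leaving out single libraries moved *Rpl17* from −0.42 to 0.21, *Rpl21* from −0.40 to 0.46, *Rpl3* from −0.056 to 0.37, *Rpl4* from −0.035 to 0.14, *Rplp0* from −0.017 to 0.12, *Rps2* from −0.11 to 3.68, *Rps27* from −0.38 to 0.13, *Rps27a* from −0.81 to 0.0050 and *Rps27l* from −0.14 to 0.087. The cause was not tested. Depth limits *Rpl3l* most (1 to 22 reads). Counts were also low for *Rpl24* (45 to 72 reads), for *Rps10* (70 to 132) and for *Rps2* in Ctrl 1 (66).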
